A study of Homo sapiens with 6 samples.

Results

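The genes described here are the histone genes whose symbols in the deposited table start with HIST and a digit, the older naming of the clustered histone genes. The rule found 50 of the 14574 genes, made up of 2 linker histone H1 genes, 14 H2A genes, 15 H2B genes, 9 H3 genes and 10 H4 genes. HCT116 is an established human colorectal carcinoma line. It was studied as LARP1 knockout cells (2 RNA-seq libraries), as parental cells (2 RNA-seq libraries), and as parental RNA in 2 further transcription start site (TSS) libraries, for which both parental RNA preparations had their caps removed and an RNA oligonucleotide joined to the 5′ ends so exposed. Every group was given the mTOR kinase inhibitor TAK228 (250 nM) over 48 h, renewed at 24 h, so the data hold no untreated comparison. RNA was taken from the non-polysomal fractions of sucrose gradients, between the small ribosomal subunit and the monosome, and the study asked which mRNAs there depend on LARP1. How the knockout was made, and whether it is 1 clone or a pool, is not given in the sources used here.

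Replication-dependent histone genes supply the proteins that package newly made DNA: an octamer of H2A, H2B, H3 and H4 forms the nucleosome core, and H1 binds the linker DNA between nucleosomes. Their transcription rises in S phase, when the coactivator NPAT acts at the clustered genes. Their mRNAs are unusual in ending in a conserved stem-loop in place of a poly(A) tail. The stem-loop-binding protein SLBP and the U7 small nuclear ribonucleoprotein direct the 3′ cleavage, SLBP then serves translation, and the mRNAs are degraded quickly when DNA synthesis stops. LARP1 is an RNA-binding protein known for binding capped mRNAs that begin with a terminal oligopyrimidine (TOP) sequence, which encode the translation machinery, and it acts downstream of mTOR.

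The stem-loop is shown because it is the feature that sets these mRNAs apart. It also differed between the H4 genes and the H2A, H2B and H3 genes in which it was found. GENCODE release 29 transcripts (GRCh38) were searched on the transcript strand for a frame of 16 bases, which read GG, any 3 bases, T, any 4 bases, A, any 3 bases and CC, with a fully complementary stem of 6 bases and a loop of 4 bases. The frame was present in 25 of the 49 members with a transcript (51.0%), against 442 of 19684 protein-coding genes (2.25%). The main transcripts of 20 members are annotated as coding sequence alone, so no stem-loop could be found there; of the 28 protein-coding members whose main transcript has untranslated sequence, 25 held it. All 7 H4 genes with a match had a stem opening with GGCCC, and all 18 matches outside H4 had a stem opening with GGCTC. Those 18 were H2A, H2B and H3 genes, as neither H1 gene had a match. The capitals below mark the stem-loop, with the flanking bases in lower case. The genes were picked to show the members called lower or higher in the knockout, the most abundant H4 genes, and the 4 stem and loop types found in more than 1 member. The H2A gene HIST3H2A lies on the minus strand at chr1:228457364-228457389, HIST2H2AA3 on the minus strand at chr1:149842218-149842243, HIST1H2BL on the minus strand at chr6:27807479-27807504, HIST1H2BD on the plus strand at chr6:26158582-26158607 and HIST1H3H on the plus strand at chr6:27810511-27810536. Among the H4 genes, HIST1H4J lies on the plus strand at chr6:27824454-27824479, HIST2H4A on the plus strand at chr1:149833027-149833052, HIST2H4B on the minus strand at chr1:149860764-149860789 and HIST4H4 on the minus strand at chr12:14770719-14770744.
HIST3H2A: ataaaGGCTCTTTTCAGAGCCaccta
HIST2H2AA3: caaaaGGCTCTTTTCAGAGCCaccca
HIST1H2BL: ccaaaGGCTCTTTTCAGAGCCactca
HIST1H2BD: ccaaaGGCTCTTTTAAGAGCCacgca
HIST1H3H: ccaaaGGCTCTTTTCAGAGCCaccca
HIST1H4J: taaaaGGCCCTTTTCAGGGCCaccct
HIST2H4A: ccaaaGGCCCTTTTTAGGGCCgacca
HIST2H4B: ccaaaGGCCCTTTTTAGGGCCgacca
HIST4H4: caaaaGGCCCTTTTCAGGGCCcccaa
The 16 capital bases were the same in HIST3H2A, the H2A gene called lower in the knockout, as in HIST2H2AA3, HIST1H2BL and HIST1H3H, which were called higher. HIST2H4A and HIST2H4B were identical over all 26 bases.

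Promoters are shown because the classes differed in them as they did in their stems. RefSeq promoter sequences (GRCh38.p14) matched 41 of the 50 members, and the 250 bases before the annotated start were searched on both strands. CCAAT, a box bound by NF-Y, was found in all 33 matched H1, H2A, H2B and H3 members and in 0 of 8 H4 members, against 33.0% of 27305 promoters. GGTCCG, an element of H4 promoters, was found in 8 of 8 H4 members, 1 of 13 H2A members, 1 of 10 H2B members and no other member, against 9.33% of all promoters. TATAAA, the TATA box, was present in 29 of 41 members (70.7%), against 11.1% of all. The octamer ATTTGCAT was present in 8 of 13 H2A and 6 of 10 H2B members but only 1 of 8 H3 members and none of the H1 or H4 members, against 1.66% of all. Divergent partners have overlapping windows, and HIST1H3D, the H3 member with the octamer, has the same annotated window as HIST1H2AD, so 1 site can count for 2 members. AAACACA, the H1 box, was found in both H1 members and no other member, against 4.95% of all. No motif is contained in another. The capitals below mark the CCAAT box, the H4 element, the TATA box and the octamer, on either strand, in the 110 bases before the start. One gene is shown for each of the H1, H2B and H3 classes, with HIST3H2A and the most abundant H4 gene. HIST1H1E spans chr6:26156219-26156328 on the plus strand, HIST3H2A chr1:228457874-228457983 on the minus strand, HIST1H2BK chr6:27146859-27146968 on the minus strand, HIST1H3H chr6:27809941-27810050 on the plus strand and HIST1H4J chr6:27823982-27824091 on the plus strand.
HIST1H1E: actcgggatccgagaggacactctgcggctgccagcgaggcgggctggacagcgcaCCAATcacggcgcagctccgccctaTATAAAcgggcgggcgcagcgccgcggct
HIST3H2A: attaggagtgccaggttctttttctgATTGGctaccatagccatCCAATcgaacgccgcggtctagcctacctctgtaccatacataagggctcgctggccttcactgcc
HIST1H2BK: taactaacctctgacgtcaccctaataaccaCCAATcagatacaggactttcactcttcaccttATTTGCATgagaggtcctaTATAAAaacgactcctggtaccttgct
HIST1H3H: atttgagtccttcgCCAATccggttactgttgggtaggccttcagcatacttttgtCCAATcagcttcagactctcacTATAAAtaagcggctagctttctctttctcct
HIST1H4J: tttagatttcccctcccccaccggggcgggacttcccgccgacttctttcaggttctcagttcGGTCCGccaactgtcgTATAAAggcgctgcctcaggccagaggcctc
A TOP-like start, meaning C at the first RNA base followed by 4 pyrimidines at the RefSeq start, was present in 1 of 41 members (2.44%), HIST3H2A. The same start was found in 4.04% of all promoters and in 43 of 64 ribosomal protein genes taken by symbol (67.2%). These matches describe the annotated letters only.

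Values are normalised read counts, which are reads divided by 1 size factor per library. The libraries held 21388111 to 22039174 reads in knockout cells, 19038642 to 25323973 in parental RNA-seq and 24446561 to 26955481 in TSS libraries, of which 6267820 to 9063478 lay outside mitochondrial genes. LARP1 itself had 356 and 284 normalised read counts in the knockout libraries, against 633 and 770.3 in parental RNA-seq libraries. Both knockout libraries were below both parental ones without reaching 0, a difference of -1.13 on the log2 scale (SE 0.18, limma adjusted p = 2.86e-09). Fold changes are differences of log2(value + 1), knockout minus parental, and are compressed for genes of low level. Called means a limma adjusted p under 0.05 over the 14561 genes tested, and all 50 members passed the filter on low values. With the deposited scaling the median of all genes was -0.29 on this scale, and after each library was centred on its own median this was 0.02, so both scalings are given. Each value is a level in 1 part of the gradient, and the data hold no polysomal or whole-cell level. More cells in S phase, more histone mRNA per cell and a different split of that mRNA along the gradient cannot be told apart. Replicates are labelled biological but no separate cultures are named, so p-values measure only the spread between these samples, which may be technical. With the deposited scaling limma read that spread from its trend with level over all genes, and not from each gene. Of the epithelial markers, 8 of 10 were in the table, among them KRT8, KRT18, KRT19 and EPCAM. The 8 summed to 12184 and 10546 in knockout and 14056 and 13354 in parental libraries. With the deposited scaling 1 of the 8 was called higher and 4 lower, where 3.77% and 25.1% of all genes were called. Their log2 fold changes ran from -0.93 to 5.69, so single markers differed more than the sums. Of 10 markers of blood, endothelial and connective tissue cells, 4 were in the table, summing to 94.0 and 47.1 in knockout and 47.1 and 63.4 in parental libraries. PTPRC, CD3E, CD79A, COL1A2, PECAM1 and VWF were not among the genes listed. Of the 4 in the table, the collagen COL3A1 had 31.3 and 23.2 in the knockout libraries and was listed at 0 in both parental ones, while the smooth muscle actin ACTA2 had 16.8 and 9.56 in the knockout libraries, against 25.6 and 39.0 in parental ones, and COL1A1 and DES overlapped. The part of such differences between the lines in the histone values was not tested.

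As a group, histone mRNAs were more abundant in the non-polysomal RNA of knockout cells. The members summed to 56998 and 53457 normalised read counts in the knockout libraries, against 48332 and 46938 in parental RNA-seq and 46660 and 50982 in TSS libraries. Both knockout sums were above all 4 parental sums, and the mean was 1.16-fold higher in knockout than in parental RNA-seq libraries. As reads, histones took 1.17% and 1.25% of those outside the mitochondrial genes in knockout libraries, against 0.530% and 0.505% in parental RNA-seq libraries, a share that depends on every other gene in the library. With limma 12 of 50 members (24.0%) rose, against 3.77% of all genes tested, and 2 members fell, against 25.1% of all genes. The other 36 were not called. The members had a median log2 fold change of 0.21, beside -0.29 for all genes, and 39 were positive. After centring, 37 members (74.0%) were called higher, against 14.6% of all genes, and the same 2 were called lower, against 16.2%, with a median of 0.52 beside 0.02. All 12 members called higher with the deposited scaling were also called after centring.

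Without a test, both knockout libraries lay above both parental RNA-seq libraries for 31 members (62.0%, against 12.4% of all genes) and below both for 7 (14.0%, against 50.4%). In 12 members the groups overlapped. The count of members called higher was smaller with any 1 library left out. It was 3 without knockout library 1, 4 without knockout library 2, 3 without parental library 1 and 2 without parental library 2. The corresponding counts of members called lower were 1, 2, 2 and 3, and the share of all genes called higher ran between 0.797% and 2.67%. The authors' deposited table compares parental with knockout cells and is turned round here. In it 18 members (36.0%, against 4.32% of its genes) were higher in the knockout and 4 were lower, against 24.3% of its genes. Those 4 were HIST3H2A, HIST2H2AA4, HIST1H4C and HIST2H4A. HIST1H1C is at -0.36 there as parental over knockout, in size between its 0.48 against RNA-seq and 0.24 against TSS libraries here. The parental group of that table may thus include TSS libraries, so its counts need not rest on the same samples as those above.

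**Figure D1:**
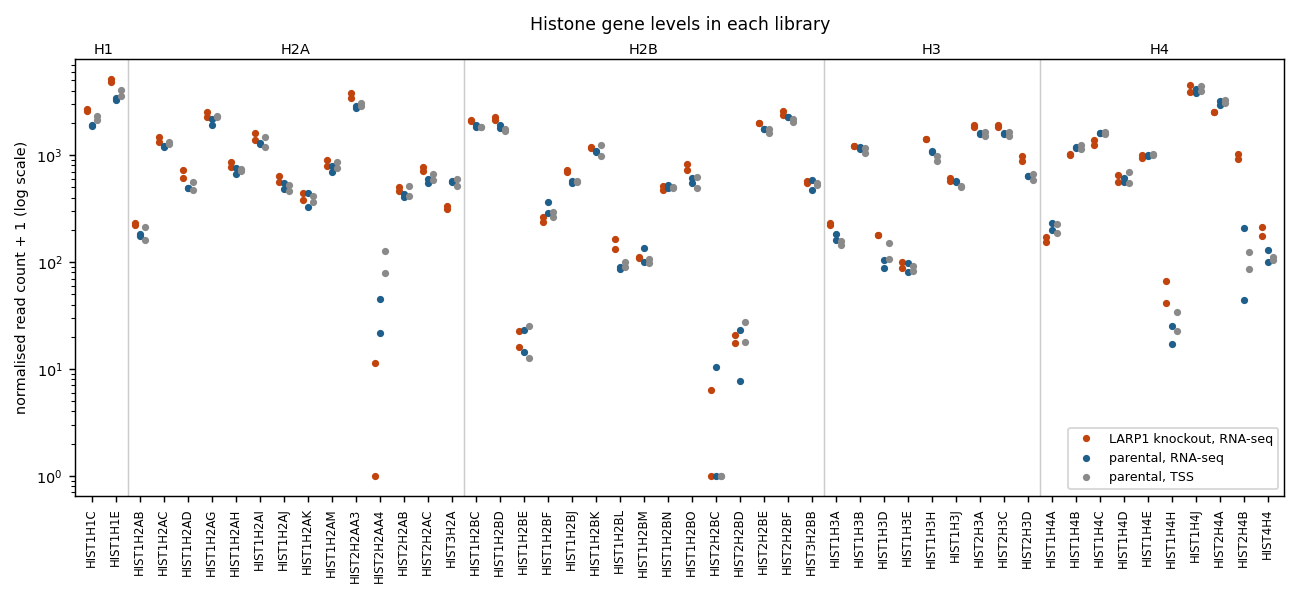
Normalised read count plus 1 (log scale) of each of the 50 histone genes in each library, grouped by class, with the 2 knockout RNA-seq, 2 parental RNA-seq and 2 parental TSS libraries as points from left to right. Most H1, H2A, H2B and H3 genes have their knockout points slightly above the parental ones, while HIST3H2A and HIST2H2AA4 lie below and HIST2H4B stands far above.

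**Figure D2:**
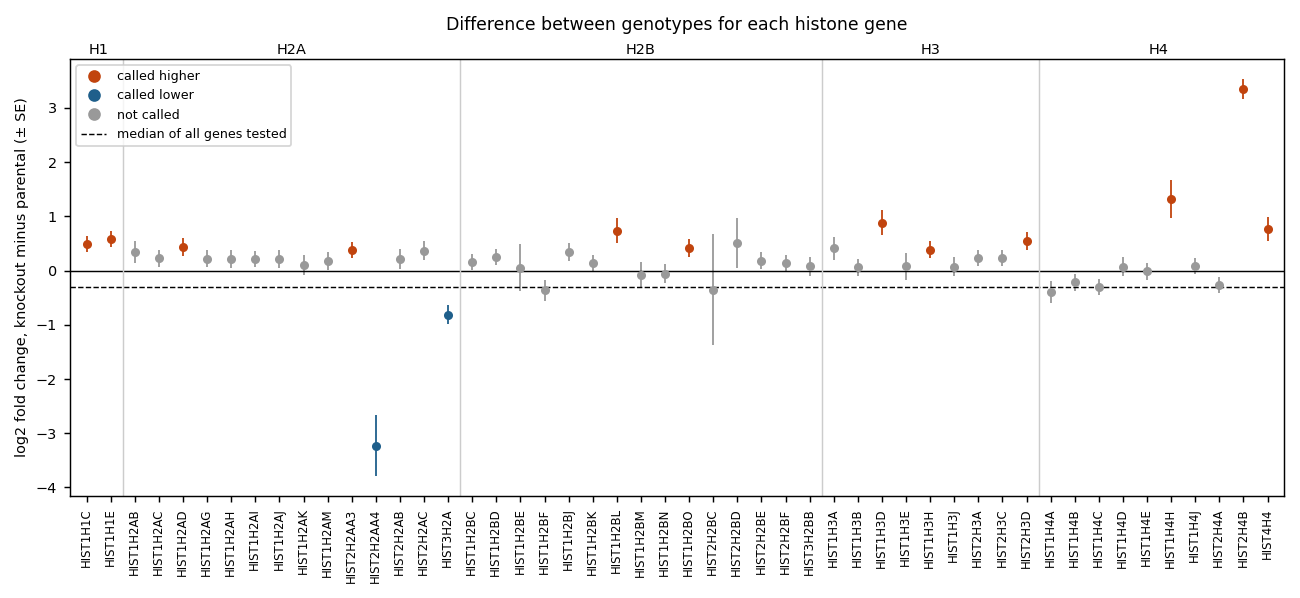
Log2 fold change (knockout minus parental RNA-seq, with the deposited scaling) of each gene with its standard error as a bar, coloured by the limma call, with the median of all genes tested at -0.29 as a dashed line. The 12 genes called higher come from every class and the 2 called lower are both H2A genes.

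Both linker histone genes rose in the knockout, the largest class-wide difference by summed level. HIST1H1C had 2710 and 2593 normalised read counts in the knockout libraries, against 1877 and 1915 in parental RNA-seq and 2149 and 2343 in TSS libraries. HIST1H1E had 5191 and 4859 in the knockout libraries, against 3283 and 3446 in parental RNA-seq and 3536 and 4069 in TSS libraries. For both genes every knockout library was above every parental one, TSS included, without overlap. The difference was 0.48 on the log2 scale (SE 0.15, limma adjusted p = 0.00648) for HIST1H1C and 0.58 (SE 0.15, limma adjusted p = 5.37e-04) for HIST1H1E, or 0.79 and 0.89 after centring. Set against the TSS libraries, HIST1H1E was still called at 0.40 (limma adjusted p = 0.0158), and HIST1H1C, at 0.24, was not (limma adjusted p = 0.197). Both calls were lost without parental library 1 and without parental library 2, at adjusted p between 0.114 and 0.236. Summed, H1 reached 7677 ± 317 in knockout and 5260 ± 142 in parental RNA-seq libraries (SD, n = 2 each), a 1.46-fold difference. A ratio taken within a library does not depend on its scaling. H1 relative to the 4 core classes was 0.161 and 0.162 in the knockout libraries, against 0.120 and 0.129 in parental RNA-seq and 0.139 and 0.144 in TSS libraries. H1 genes thus made up a larger share of the histone signal in the knockout than in any parental library, with 13.9% in each knockout library, against 10.7% and 11.4% in parental RNA-seq libraries. No other gene shared any stretch of 150 bases with either H1 gene.

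H2A genes moved both ways: 2 of 14 rose, 2 fell and 10 were not called, with a median log2 fold change of 0.21. Of all genes, 3.77% rose and 25.1% fell. HIST2H2AA3, the most abundant H2A gene, had 3834 and 3442 normalised read counts in the knockout libraries, against 2859 and 2744 in parental RNA-seq libraries. HIST1H2AD had 720 and 612 in the knockout libraries, against 487 and 495 in parental RNA-seq libraries. The knockout libraries were the higher ones for both genes, without overlap, and both calls lay near the threshold. The log2 fold change was 0.38 (SE 0.15, limma adjusted p = 0.0389) for HIST2H2AA3 and 0.43 (SE 0.17, limma adjusted p = 0.0422) for HIST1H2AD. GENCODE places 97.1% of the 150-base stretches of HIST1H2AD also in the overlapping gene AL031777.3, so its reads could be split between them.

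HIST3H2A fell, and it was the only member whose call held under all 19 alternative settings. It had 312 and 335 normalised read counts in the knockout libraries, against 577 and 558 in parental RNA-seq libraries and 516 and 598 in TSS libraries. Both knockout libraries were well below all 4 parental libraries. The log2 fold change was -0.81 (SE 0.18, limma adjusted p = 5.86e-05), and -0.50 after centring. HIST3H2A lies on chromosome 1 from 228456979 to 228457873, away from the large clusters, and shares no 150-base stretch with another gene. Its divergent neighbour HIST3H2BB, whose start lies 234 bases away, had 568 and 544 in the knockout libraries, against 586 and 472 in parental RNA-seq libraries. The groups overlapped for HIST3H2BB, at a log2 fold change of 0.08 (SE 0.17, limma adjusted p = 0.771).

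HIST2H2AA4 was also called lower, but it is a near-identical copy of HIST2H2AA3. It was listed at 0 and had 10.2 normalised read counts in the knockout libraries, against 44.4 and 20.7 in parental RNA-seq and 77.2 and 125 in TSS libraries. Knockout libraries were below all parental ones at levels far under those of the other copy, with a log2 fold change of -3.23 (SE 0.56, limma adjusted p = 1.11e-07). The value was -1.48 and not called (limma adjusted p = 0.133) without knockout library 1, the one listed at 0, and DESeq2 did not call it either (adjusted p = 0.486). HIST2H2AA3 shares 100% of its 150-base stretches with other transcripts and HIST2H2AA4 shares 96.4%, so reads cannot be assigned to either with certainty. Summed, the pair had 3834 and 3452 in the knockout libraries, against 2904 and 2764 in parental RNA-seq libraries, a log2 fold change of 0.36 (SE 0.15, limma adjusted p = 0.0484).

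None of the 10 remaining H2A genes was called with the deposited scaling, and all 10 were called higher after centring. HIST1H2AC, HIST1H2AG, HIST1H2AH, HIST1H2AI, HIST1H2AJ and HIST2H2AB had log2 fold changes between 0.21 and 0.23, HIST1H2AK and HIST1H2AM had 0.11 and 0.18, and HIST1H2AB and HIST2H2AC had 0.34 and 0.37. HIST1H2AG, the most abundant of these, had 2506 and 2283 normalised read counts in the knockout libraries, against 2189 and 1923 in parental RNA-seq libraries. The groups did not overlap for 8 of the 10, with the knockout above, and overlapped for HIST1H2AK and HIST1H2AM. HIST1H2AK had 440.8 and 378 in the knockout libraries, against 442 and 324 in parental RNA-seq libraries, a log2 fold change of 0.11 that was -0.11 without parental library 2 and -0.000325 without knockout library 1.

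Of the 15 H2B genes, 2 rose and none fell, against 3.77% and 25.1% of all genes. The other 13 were not called, and the class median was 0.14. HIST1H2BL, a gene of low level, had 131 and 162 normalised read counts in the knockout libraries, against 84.8 and 89.0 in parental RNA-seq libraries. HIST1H2BO had 817 and 727 in the knockout libraries, against 609.8 and 548 in parental RNA-seq libraries. Neither gene's groups overlapped, and the knockout was the higher group in each. The log2 fold change was 0.74 (SE 0.24, limma adjusted p = 0.00907) for HIST1H2BL and 0.41 (SE 0.17, limma adjusted p = 0.0485) for HIST1H2BO. HIST2H2BF, the most abundant H2B gene, had 2608 and 2395 in the knockout libraries, against 2264 and 2265 in parental RNA-seq libraries. Those groups did not overlap either, yet the log2 fold change of 0.14 (SE 0.15) was not called (limma adjusted p = 0.508).

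After centring, 9 H2B genes were called higher: HIST1H2BL and HIST1H2BO, and also HIST1H2BC, HIST1H2BD, HIST1H2BJ, HIST1H2BK, HIST2H2BE, HIST2H2BF and HIST3H2BB. With the deposited scaling these last 7 had log2 fold changes between 0.08 and 0.34. HIST1H2BJ, with the largest fold change of the 7, had 720 and 692 normalised read counts in the knockout libraries, against 569 and 547 in parental RNA-seq libraries. HIST1H2BF had the lowest fold change of the class, with 261 and 237 in the knockout libraries, against 361 and 285 in parental RNA-seq libraries. Its groups did not overlap and its log2 fold change was -0.37 (SE 0.19, limma adjusted p = 0.146), or -0.05 after centring. HIST1H2BM and HIST1H2BN were at -0.07 and -0.05, with groups that overlapped, and after centring at 0.24 and 0.26, neither called. HIST1H2BE, HIST2H2BC and HIST2H2BD had means of 18.2, 2.67 and 18.1 in knockout and 17.7, 4.71 and 14.3 in parental RNA-seq libraries, too low to show a difference of this size. The authors labelled both HIST2H2BC and HIST2H2BD as processed pseudogenes, while GENCODE lists HIST2H2BD as a transcribed unprocessed pseudogene.

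Many H2A and H2B genes are arranged head to head around a shared promoter, and 11 such pairs with GENCODE starts within 1000 bases were found. Among them is HIST2H2AA3 with the pseudogene HIST2H2BD. For members annotated as coding sequence alone, such as HIST1H2AD, HIST1H2AM and HIST1H2BO, that start is the start of the coding sequence. Distances between RNA starts may therefore be shorter. In none of the 11 pairs were both genes called in the same direction with the deposited scaling, while after centring both were called higher in 6. HIST1H2AD, called higher at 0.43, started 277 bases from HIST1H2BF at -0.37. HIST1H2BL, called higher at 0.74, started 268 bases from HIST1H2AI at 0.21, and HIST1H2BO, called higher at 0.41, started 314 bases from HIST1H2AM at 0.18. The difference between partners was not tested.

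H3 genes all had positive fold changes. Of the 9 genes, 3 rose and none fell, against 3.77% and 25.1% of all genes, and 6 were not called. HIST2H3D had 976 and 873 normalised read counts in the knockout libraries, against 631 and 637 in parental RNA-seq libraries. HIST1H3H had 1410 and 1404 in the knockout libraries, against 1072 and 1084 in parental RNA-seq libraries. HIST1H3D had 176 and 178 in the knockout libraries, against 104 and 87.8 in parental RNA-seq libraries. In all 3 the knockout libraries were above both parental RNA-seq libraries and both TSS libraries. On the log2 scale the difference was 0.54 (SE 0.17, limma adjusted p = 0.00588) for HIST2H3D, 0.38 (SE 0.16, limma adjusted p = 0.0491) for HIST1H3H and 0.89 (SE 0.23, limma adjusted p = 7.57e-04) for HIST1H3D. HIST1H3D shares 100% of its 150-base stretches with AL031777.3, so its level is uncertain. HIST2H3A and HIST2H3C are identical copies with identical values, the highest of the class, at 1900 and 1848 in the knockout libraries, against 1583 and 1605 in parental RNA-seq libraries. Those libraries did not overlap, but the log2 fold change of 0.23 (SE 0.15) was not called (limma adjusted p = 0.256). Of the rest, HIST1H3A had a log2 fold change of 0.41, HIST1H3B of 0.06, HIST1H3E of 0.08 and HIST1H3J of 0.07. After centring all H3 genes but HIST1H3E were called higher.

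After centring, 6 of 10 H4 genes were called higher and none lower, against 14.6% and 16.2% of all genes, at a median of 0.34. As a class, H4 genes were at nearly the same level in both genotypes with the deposited scaling. Their summed level was 12054 ± 727 in knockout and 11855 ± 404 in parental RNA-seq libraries (SD, n = 2 each), a 1.02-fold difference within the spread, beside 1.46-fold for H1, 1.18-fold for H2A, 1.13-fold for H2B and 1.20-fold for H3. The H4 median log2 fold change was 0.03, against 0.21 over the 40 members of the other classes, with 5 genes positive and 5 negative. Relative to H3 within the same library, H4 was at 1.48 and 1.40 in the knockout libraries, against 1.74 and 1.65 in parental RNA-seq and 1.85 and 1.82 in TSS libraries. Both knockout ratios were below all 4 parental ratios, and this does not depend on the scaling of the libraries. The H3 sums hold both HIST2H3A and HIST2H3C, which have identical values, so the size of the ratios depends on counting each copy. H4 made up 22.05% and 21.6% of the histone signal in the knockout libraries, against 25.1% and 24.6% in parental RNA-seq libraries. With 2 libraries a group no exact permutation p can be under 0.333, so the ratios are given without a test.

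**Figure D3:**
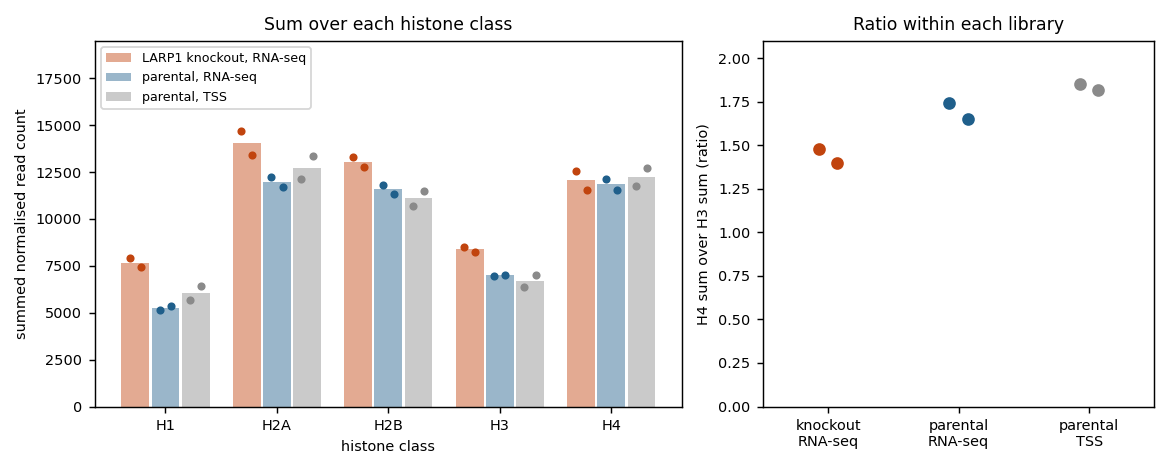
Left, the summed normalised read count of each histone class in the knockout RNA-seq, parental RNA-seq and parental TSS libraries, with bars for the mean and points for the 2 libraries of each group. Right, the ratio of the H4 sum to the H3 sum in each library, at 1.48 and 1.40 in knockout, 1.74 and 1.65 in parental RNA-seq and 1.85 and 1.82 in TSS libraries.

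HIST1H4J was the most abundant H4 gene and, per kilobase of its main transcript, the highest of all members, at 11333 normalised read counts per kilobase in knockout and 10632 in parental RNA-seq libraries. By the same measure HIST1H1E was at 6665 in knockout and 4462 in parental RNA-seq libraries, HIST2H2AA3 at 6627 and 5103, and HIST2H4A at 4360 and 5264. HIST1H4J had 4519 and 3935 normalised read counts in the knockout libraries, against 4146 and 3786 in parental RNA-seq libraries. Its groups overlapped, at a log2 fold change of 0.09 (SE 0.15, limma adjusted p = 0.691), and 72.8% of its 150-base stretches also occur in HIST1H4K. HIST1H4C had 1370 and 1246 in the knockout libraries, against 1623 and 1599 in parental RNA-seq and 1580 and 1633 in TSS libraries. The log2 fold change of HIST1H4C was -0.30 (SE 0.15), not called here (limma adjusted p = 0.131) but called lower in the authors' table. Every knockout library was below every parental one for this gene. HIST1H4A and HIST1H4B had the same order at -0.40 and -0.22, not called, while HIST1H4D and HIST1H4E overlapped at 0.07 and -0.02. After centring, the differences of HIST1H4A, HIST1H4B and HIST1H4C were -0.08, 0.09 and 0.01, and HIST1H4D, HIST1H4E and HIST1H4J were called higher at 0.38, 0.30 and 0.40.

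With the deposited scaling 3 of 10 H4 genes were called higher, against 3.77% of all genes. They were HIST2H4B, HIST1H4H and HIST4H4. HIST4H4, a solitary gene on chromosome 12, had 213 and 173 normalised read counts in the knockout libraries, against 128 and 98.7 in parental RNA-seq and 111 and 103 in TSS libraries. HIST1H4H had 64.9 and 40.3 in the knockout libraries, against 16.2 and 24.4 in parental RNA-seq and 21.5 and 33.1 in TSS libraries. Both were low genes whose knockout libraries lay above all parental ones. These differences were 0.77 on the log2 scale (SE 0.22, limma adjusted p = 0.00306) for HIST4H4 and 1.32 (SE 0.35, limma adjusted p = 9.38e-04) for HIST1H4H.

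HIST2H4B had the highest fold change of any member with the deposited scaling, and it is a near-identical copy of HIST2H4A. HIST2H4B had 1024 and 925 normalised read counts in the knockout libraries, against 43.1 and 206 in parental RNA-seq and 123 and 85.2 in TSS libraries. HIST2H4A had 2535 and 2550 in the knockout libraries, against 3216 and 2921 in parental RNA-seq libraries. Knockout libraries were high for the first copy and, with the deposited scaling, low for the second, without overlap in either. The log2 fold change was 3.35 (SE 0.19, limma adjusted p = 5.74e-67) for HIST2H4B and -0.27 (SE 0.15, limma adjusted p = 0.162) for HIST2H4A. These SEs were read from the trend with level. That of HIST2H4B thus leaves out the gap between its parental values of 43.1 and 206, and its p-value is too small to be taken at its size. For HIST2H4B the authors' table gave an SE of 0.65. The authors' table called HIST2H4A lower in the knockout. After centring HIST2H4A was at 0.04 with overlapping groups. The HIST2H4B value was 2.23 without parental library 1 and 4.47 without parental library 2, and its limma adjusted p was 0.0595 without knockout library 1 and 0.0773 without knockout library 2. Both genes share 100% of their 150-base stretches with other transcripts, so which copy a read of this length came from is uncertain. The sum of the pair was 3559 and 3474 in the knockout libraries, against 3259 and 3127 in parental RNA-seq libraries. Summed, the log2 fold change was 0.14 (SE 0.15) and was not called (limma adjusted p = 0.511), while after centring it was 0.45 (limma adjusted p = 8.61e-04). HIST2H4B held 28.8% and 26.6% of the pair's signal in knockout libraries, against 1.32% and 6.59% in parental RNA-seq and 3.84% and 2.55% in TSS libraries.

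**Figure D4:**
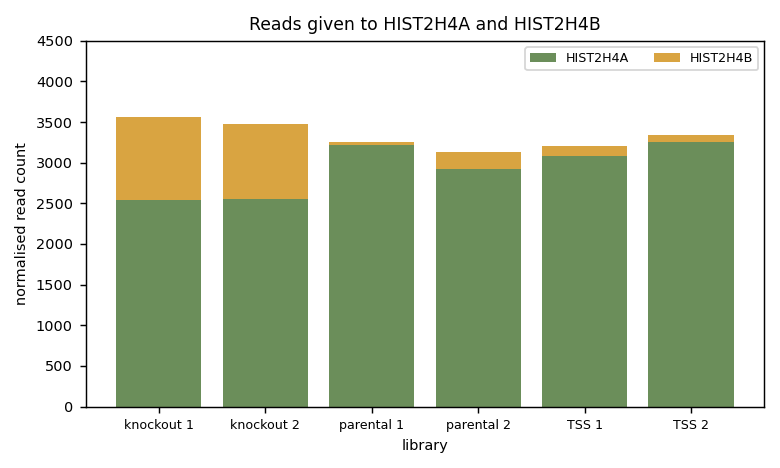
Stacked bars of the normalised read counts given to HIST2H4A and HIST2H4B in each of the 6 libraries. The stacks are of similar height, 3474 to 3559 in knockout and 3127 to 3259 in parental RNA-seq libraries, while the part given to HIST2H4B is large only in the knockout libraries.

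Calls were made among members with and without sequence shared with other genes. Beside all counts here, 3.77% of all genes tested were called higher and 25.1% lower with the deposited scaling. Of the 33 members with no 150-base stretch in common with another gene, 7 were called higher and 1 lower, with a median log2 fold change of 0.18. Of the 13 with at least 50% of their stretches shared, 4 were called higher and 1 lower, with a median of 0.23. With HIST2H4A and HIST2H4B summed, HIST2H2AA3 and HIST2H2AA4 summed and HIST2H3A and HIST2H3C counted once, an alternative chosen after seeing the data, 11 of 47 entries were called higher and 1 lower. In that fit 3.76% of all genes were called higher and 25.1% lower. Among the members of higher level, the 33 with a mean of at least 500 had 8 calls higher, none lower and a median of 0.21. By location, 8 of 34 genes with the symbol HIST1 and 3 of 13 with HIST2 were called higher, with medians of 0.19 and 0.23.

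The TSS libraries gave a second reading of the parental histone mRNAs, made from the same RNA. Relative to the parental RNA-seq libraries, the members had a median log2 difference of 0.02, beside -0.11 for all genes. The TSS libraries were above both RNA-seq libraries for 8 of 50 members and below both for 7. Over the 14561 genes tested, the counts were 1131 above and 4875 below. Both H1 genes were among those above, at a median of 0.21. Set against the TSS libraries in place of the parental RNA-seq libraries, the knockout libraries gave 10 members called higher and 2 lower with limma, where 6.33% and 21.4% of all genes were called.

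Of 20 genes of histone mRNA 3′ processing, none was called higher and 10 lower with the deposited scaling, where 3.77% and 25.1% of all genes were called, with a median log2 fold change of -0.42. SLBP, which binds the stem-loop, had 326 and 268 normalised read counts in the knockout libraries, against 331 and 334 in parental RNA-seq libraries. Its knockout libraries were the lower ones, but the log2 fold change of -0.17 (SE 0.19) was not called (limma adjusted p = 0.538), and after centring they were the higher ones at 0.14, again not called. LSM10 and LSM11, the Sm-like proteins particular to the U7 particle, fell by 0.90 and 0.62 on the log2 scale (limma adjusted p = 0.00459 and 0.0214), and after centring LSM11 was no longer called at -0.31 (limma adjusted p = 0.121). The 3 smallest p-values of the list were those of the shared Sm proteins SNRPF and SNRPE and the cleavage endonuclease CPSF3. SNRPF averaged 72.3 ± 14.4 in knockout and 224 ± 12.1 in parental RNA-seq libraries (SD, n = 2 each), and fell by 1.63 on the log2 scale (limma adjusted p = 2.28e-11). CPSF3 fell by 1.21 (limma adjusted p = 7.69e-10) and SNRPE by 1.05 (limma adjusted p = 3.09e-07). After centring, 3 genes of this list were called higher and 4 lower, against 14.6% and 16.2% of all genes, with a median of -0.11.

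Histone gene transcription factors and their regulators had a median log2 fold change of 0.07. Of these 10 genes, none rose and 1 fell, against 3.77% and 25.1% of all genes. That gene was CCNE2, a cyclin E, at 69.2 ± 16.7 in knockout and 114 ± 1.92 in parental RNA-seq libraries (SD, n = 2 each), a log2 difference of -0.74 (limma adjusted p = 0.015) that was not called after centring (-0.43, limma adjusted p = 0.0902). NPAT had 272 and 208 in the knockout libraries, against 188 and 232 in parental RNA-seq libraries. Those values overlapped, at 0.18 (SE 0.20, limma adjusted p = 0.53), while after centring NPAT was called higher at 0.50. Of the 10 genes, 6 were called higher after centring, against 14.6% of all genes. Of 13 genes of histone mRNA translation and decay, none rose and 2 fell: MIF4GD, a partner of SLBP in translation, at -1.04 (limma adjusted p = 1.11e-04), and the decapping enzyme DCP2 at -0.63 (limma adjusted p = 0.00394). UPF1, the helicase that acts in histone mRNA decay, was at -0.03 (SE 0.19, limma adjusted p = 0.927). After centring, 2 of the 13 were called higher and 2 lower, against 14.6% and 16.2% of all genes, with a median of 0.12.

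Of 25 other S-phase genes, none rose and 7 fell with the deposited scaling, near the 3.77% and 25.1% of all genes, and their median log2 fold change of -0.36 was close to the -0.29 of all genes. The replication licensing factor CDT1 averaged 440.1 ± 23.7 in knockout and 1837 ± 199 in parental RNA-seq libraries (SD, n = 2 each), and fell by 2.06 on the log2 scale (limma adjusted p = 5.75e-35). PRIM1, a primase subunit, fell by 1.87 (limma adjusted p = 5.30e-16) and RRM1, a subunit of ribonucleotide reductase, by 1.08 (limma adjusted p = 1.96e-08). After centring, 3 of the 25 were called higher and 6 lower, where 14.6% and 16.2% of all genes were called. The S-phase list also holds SLBP and CCNE2, named above. Replacement histones, which are also made outside S phase and mostly from polyadenylated mRNAs, stood near the median of all genes, at a median of -0.25. Of 11 in the table none rose and 2 fell. Those were H3F3A at -0.84 (limma adjusted p = 5.33e-05) and the linker variant H1F0 at -0.69 (limma adjusted p = 4.55e-05). H1F0 averaged 1491 ± 221 in knockout and 2404 ± 244 in parental RNA-seq libraries (SD, n = 2 each), the opposite order to HIST1H1C and HIST1H1E. After centring the 11 had a median of 0.07, with 3 called higher and 2 lower.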

How the data were processed

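RNA-seq libraries of non-polysomal RNA from HCT116 cells were compared by genotype. The submitters' processing notes name the build GRCh38 and the tools STAR 2.6, SAMtools, RSEM and DESeq2; which annotation release was used, and whether strand was, is not given in the sources used here. The authors deposited signal, here called normalised read counts, which were gene read counts divided by a size factor per library: 100% of values were whole multiples of 1 read within 0.001 reads, so whole reads were recovered. Per the file headers, the table further carries the log2 fold change, linear fold (ratio), test score, p-values and −log10 adjusted p that the authors computed between genotypes. It held 0 ERCC rows, so the spike-in scaling was not rebuilt.

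The values were not raw counts, so limma's trend method (limma 3.58.1 in R 4.3.3) was fitted by genotype alone, two-sided, to log2(value + 1) of the 4 RNA-seq libraries, in place of the count test planned for raw counts. The filter asked for a minimum of 1 in 2 or more of these libraries, which 14561 genes met, and p-values were adjusted by Benjamini-Hochberg. limma estimated infinite prior degrees of freedom, so spread was read from its trend with level and not from single genes. edgeR 4.0.16 and DESeq2 1.42.0 were run on recovered reads, where edgeR called 513 genes higher and 3617 lower and DESeq2 292 and 2536. Same-numbered libraries did not deviate together (correlation -0.02 over 14561 genes), so the numbers were not used as pairs. No 2 libraries agreed within sampling noise; the lowest ratio of median chi-square to its expectation was 1.77, between the knockout libraries. Depth limited single genes: 39 members had at least 100 reads in each RNA-seq library and 11 did not.

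The members and gene lists were chosen with earlier results of these data known. Named were all members called under either scaling, the most abundant of each class, the lowest fold change, LARP1, up to 3 called genes per list and direction, and SLBP, LSM10, LSM11, NPAT and UPF1; HIST1H4A, HIST1H4B, HIST1H4C, HIST2H4A, HIST1H2BF and the pairs were added after their values were seen. Identifiers matched GENCODE release 29 for 49 of 50 members (48 with version) and 14535 of 14574 genes. Other choices, such as TMM factors, filters, pseudocounts of 0.1 and 5 and each library left out, were run as alternatives.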

Additional observations from a re-analysis of the deposited data

How the results depend on the processing

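The 12 members called higher became 37 after centring, 37 with TMM factors and 37 with median-of-ratios factors, with medians of 0.52, 0.51 and 0.52 in place of 0.21. In each, 2 were called lower. Calls over all genes moved too: 14.6%, 13.6% and 13.8% were called higher, against 3.77% with the deposited scaling. The shares called lower were 16.2%, 16.8% and 16.5%, against 25.1%. Without an intensity trend 3 were called higher and 1 lower, and this fit lost 10 of the 14 calls. It called 1.94% of all genes higher and 13.5% lower. DESeq2 called 10 higher and 1 lower, edgeR 9 and 2, and a minimum of 5 in every library left 1 called lower. Of all genes, DESeq2 called 2.01% higher and 17.4% lower, edgeR 3.52% and 24.8%, and the minimum of 5 gave 3.43% and 26.3%. Leaving out 1 library at a time gave 2 to 4 called higher, 1 to 3 called lower and medians of 0.15 to 0.27, with 8 to 10 of the 14 calls lost; the lone library of a group was then assumed to vary like the others. With copies summed, chosen after seeing the data, 1 was called lower, against 25.1% of all genes. With copies summed and centred, 36 were called higher and 1 lower, against 14.6% and 16.3% of all genes, at a median of 0.52. No filter and pseudocounts of 0.1 and 5 each gave 12 and 2, as did the mean of RNA-seq and TSS libraries as the parental group.

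The same-numbered libraries were not taken as pairs. With the replicate block 8 members were called higher and 2 lower, against 2.66% and 19.0% of all genes, and 4 calls were lost.

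Centring turned the sign of 6 members from negative to positive: HIST1H4E, and also HIST1H2BM (0.24), HIST1H2BN (0.26), HIST1H4B (0.09), HIST1H4C (0.01) and HIST2H4A (0.04), of which HIST1H4E alone was called. With 1 library left out at a time, HIST1H2AK lay between -0.11 (without parental library 2) and 0.33, HIST3H2BB between -0.075 (without parental library 2) and 0.24, HIST1H4D between -0.036 (without knockout library 1) and 0.18, HIST1H4E between -0.067 (without knockout library 1) and 0.035 (without knockout library 2), and HIST1H4J between -0.0098 (without knockout library 1) and 0.19. HIST1H2AK was also at -0.000325 without knockout library 1, and HIST1H4E at 0.0043 without parental library 1. HIST1H4D was -0.017 against the TSS libraries, and HIST1H4E was 0.30 centred, with copies summed or not, 0.28 with TMM factors and 0.29 with median-of-ratios factors. The cause was not tested.

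The data hold only non-polysomal RNA of treated cells, 2 libraries a group, and no whole-cell level. Normalised read counts of near-identical copies depend on how the authors' counting split reads, and strand is not known for overlapping genes.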
